A study of Mus musculus with 71 samples.

Results

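Cytosolic ribosomal protein genes encode the proteins that, together with ribosomal RNA, build the large (60S) and small (40S) subunits of the ribosome that translates messenger RNA in the cytosol. Most of these proteins are present once in each ribosome, and their genes are usually transcribed in step with cell growth, under the influence of Myc and of the mTOR kinase pathway. Many of their mRNAs begin with a cytosine followed by a run of pyrimidines, the 5′ terminal oligopyrimidine (TOP) motif, through which mTOR signalling controls their translation. In mouse embryonic stem (ES) cells, which divide fast, the family belongs to the steadily and highly expressed genes, and several members serve as reference genes in expression assays.

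Members were taken by gene symbol: Rpl or Rps followed by a number and at most one letter a, x or y, the P-stalk genes Rplp0, Rplp1 and Rplp2, and Rpsa, without entries for pseudogenes. This gave 76 genes of the 24222 in the count tables, 46 of the large and 30 of the small subunit. Polyadenylated RNA was sequenced from C57BL/6 mouse ES cells grown on gelatin in 2i, a medium with 2 kinase inhibitors that holds the cells in a naive pluripotent state. The study compared 3 genotypes with 3 libraries each: wild type (WT), a knockout of both Ezh1 and Ezh2 (dKO), and EZH2 rescue cells (rescue), for which the labels do not give the parent line or the promoter of the transgene. EZH1 and EZH2 are alternative enzymes of Polycomb repressive complex 2 (PRC2), which places methyl groups on histone H3 at lysine 27. The labels name no clone, passage or culture for a library, so the p-values measure the spread between these libraries, which may be technical.

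Libraries held 12457622 to 36009529 counts, and levels are given as CPM, counts relative to library size scaled by trimmed-mean (TMM) factors. Ezh1 was at 47.9 to 53.4 CPM in WT, 1.80 to 2.34 in dKO, with 2.34 to 3.42 in rescue, so all rescue libraries shared the low Ezh1 level of dKO. Ezh2 was at 308 to 314 CPM in WT, 191 to 214 in dKO, with 549 to 576 in rescue. Counts over the whole Ezh2 gene do not show which part of it was deleted. All 12 ES cell markers were expressed, with summed levels of 8071 to 8288 CPM in WT, 6956 to 7045 in dKO, against 9789 to 9865 in rescue. Singly they did not all move alike: 9 were called lower and 2 higher in dKO against WT. In rescue against dKO 10 were higher and 0 lower, and in rescue against WT 9 were higher and 1 lower. Of all tested genes 64.7%, 70.3% and 54.1% were called in these comparisons. Of 10 fibroblast and feeder markers 5 were tested. The summed level of all 10 was 5.67 to 7.23 CPM in WT, 51.6 to 56.5 in dKO, with 10.4 to 12.1 in rescue. All 5 tested markers were called higher in dKO against WT, with a median log2 fold change of 2.44. Lum, 1 of the 10 markers, had 0 counts in every library. Most of the dKO sum came from Thy1 (28.7 to 30.9 CPM) and Fbn1 (13.9 to 18.9 CPM). A change in bulk RNA cannot tell fewer cells of a type from less RNA per cell, and the part of these marker shifts in the results was not tested.

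Sequence features known for the family were searched at the annotated starts. RefSeq promoter sequences (GRCm38.p6, the assembly mm10 is built from) matched 56 of the 76 members. An annotated start fell on a C that opened a stretch of at least 5 pyrimidines, whether or not pyrimidines also preceded it, in 13 of these 56 members (23.2%), against 3.01% of 27025 genes. Such a stretch opened with a C within 5 bases of a start in 27 members (48.2%), against 21.2% of genes. The core of the ETS factor motif, CCGGAAG on either strand within 300 bases around the start, was found in 23 of 56 members (41.1%) and in 9.93% of all genes. The YY1 core AAGATGG, searched the same way, was in 9 members (16.1%) and in 7.28% of all genes. Most of the 56 members lacked each of these features. The following windows run from 50 bases before to 25 bases from the annotated start on the strand of the gene, with the longest such run opening within 5 bases of the start in capitals. They show a run whose first C is the start base (Rpl38), 2 genes whose level rose in a comparison given further on (Rpl27a and Rpl14), 2 genes whose start lies under a Suz12 peak (Rps21 and Rps27), a large-subunit gene whose fall in rescue held in every alternative (Rpl22, no such run at this start), and 1 more small-subunit gene that was lower in dKO (Rps18).
Rpl38: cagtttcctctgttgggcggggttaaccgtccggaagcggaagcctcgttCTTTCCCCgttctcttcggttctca
Rpl27a: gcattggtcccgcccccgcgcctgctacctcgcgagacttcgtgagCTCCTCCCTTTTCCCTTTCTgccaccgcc
Rpl14: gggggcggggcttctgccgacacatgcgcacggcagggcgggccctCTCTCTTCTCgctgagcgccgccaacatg
Rps21: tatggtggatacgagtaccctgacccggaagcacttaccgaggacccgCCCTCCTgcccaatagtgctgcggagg
Rps27: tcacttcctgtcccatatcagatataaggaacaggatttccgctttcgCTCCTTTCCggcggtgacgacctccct
Rpl22: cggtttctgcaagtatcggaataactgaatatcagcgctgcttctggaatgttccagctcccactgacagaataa
Rps18: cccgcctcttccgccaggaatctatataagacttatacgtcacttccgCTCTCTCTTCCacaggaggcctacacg
These windows lie at chr11:114668530-114668604 (Rpl38, plus strand), chr7:109519145-109519219 (Rpl27a, plus), chr9:120571467-120571541 (Rpl14, plus), chr2:180257329-180257403 (Rps21, plus), chr3:90213624-90213698 (Rps27, minus), chr4:152324386-152324460 (Rpl22, plus) and chr17:33955641-33955715 (Rps18, minus). The Rpl38 window also holds the ETS core in lower case, and the Rps21 window holds it as well.

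The family took a few percent of the RNA counted, shared very unevenly. The 76 genes took 2.29%, 2.34% and 2.18% of all counts in WT, 2.26%, 2.21% and 2.02% in dKO, with 1.94%, 2.00% and 1.86% in rescue. Relative to the TMM-scaled library size these shares were 2.24% to 2.43% in WT, 1.90% to 2.13% in dKO and 1.91% to 2.07% in rescue. On total counts WT and dKO overlapped and rescue lay below both, and on scaled size WT lay above both others, which overlapped. The 5 genes with most counts held 50.5% of the family's counts, and the first 10 held 68.6%. Rpl4 was at 3823, 3868 and 3544 CPM in WT, while 22 genes had a mean under 10 CPM and 44 a mean under 100 CPM. Among the low ones were the exit-tunnel gene Rpl17, Rpl19, Rpl23a, Rps12, Rps27 and Rps28, the last at 0.344 to 0.722 CPM in WT. Rpl26 had at most 0.826 CPM in any library and was the one member that did not pass the filter on low counts, which left 75 tested genes. CPM is not per length, so this is an order of counts and not of transcripts.

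**Figure D1:**
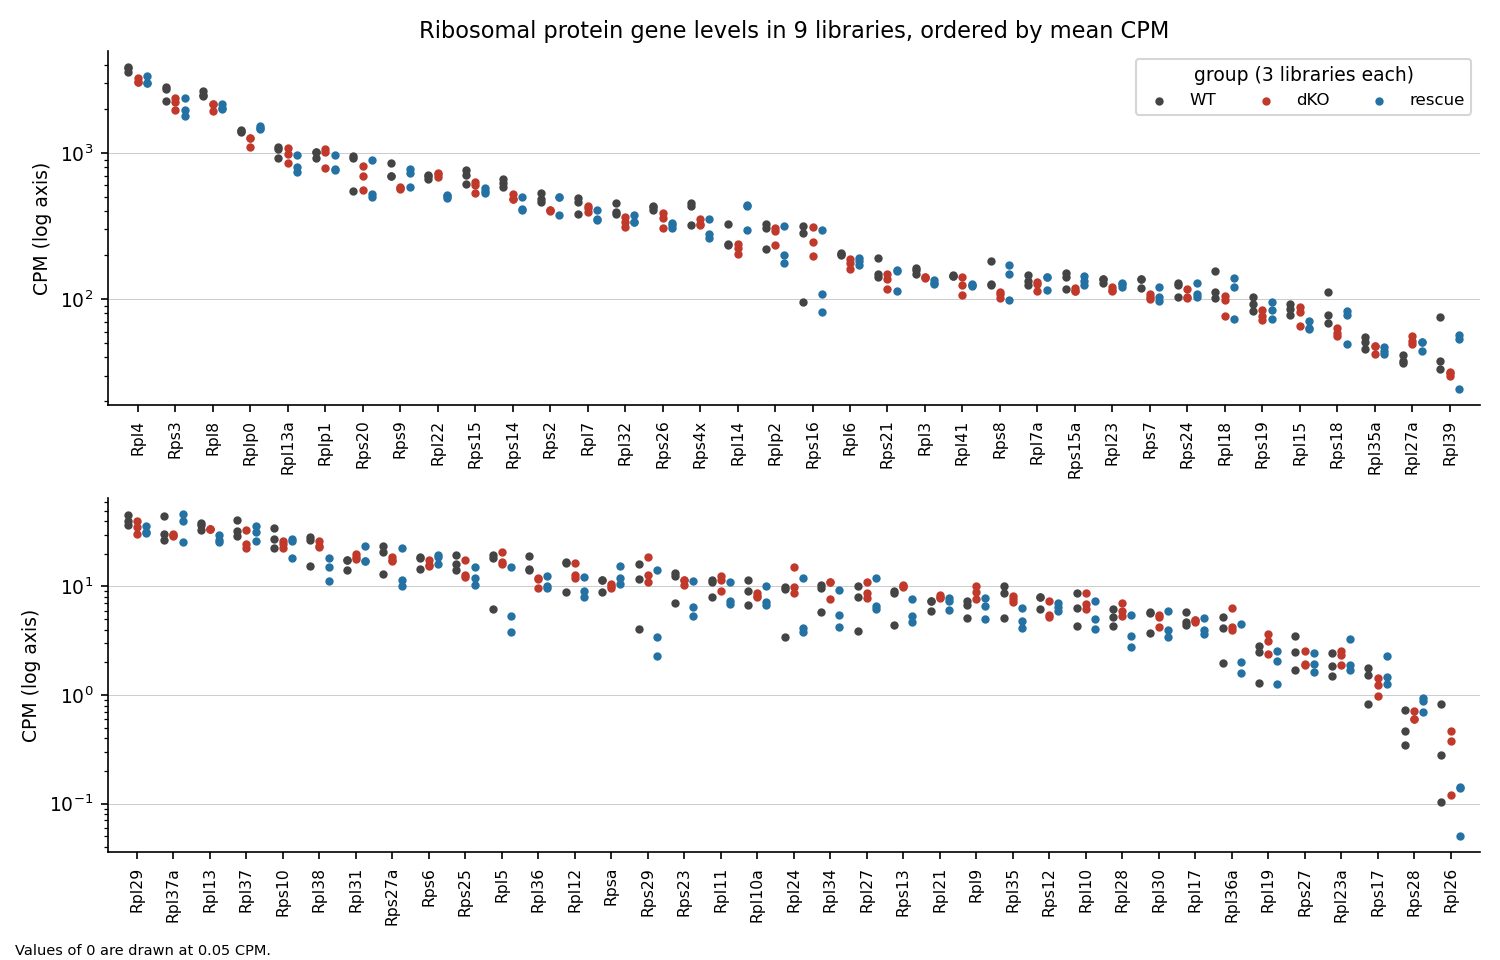
TMM-scaled CPM of 73 of the 76 ribosomal protein genes on a log axis, ordered by mean, with one point per library and 3 libraries for each of WT, dKO and rescue. Levels run from 3015 to 3868 CPM for Rpl4 down to at most 0.943 CPM for Rps28 and 0.826 CPM for Rpl26, and the groups lie close together beside that range.

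Members with many pseudogenes tended to have fewer counts. Ribosomal protein genes are known for processed pseudogenes, copies of the spliced mRNA scattered through the genome, and reads that match several places are often not counted. RefSeq lists 315 pseudogene entries named after 62 of the 76 members, with 23 each for Rpl31 and Rps12. Across the 76 genes the number of entries and log2 mean CPM had Spearman's rho = -0.44 and Pearson's r = -0.35, a description over genes that share the same libraries. The 24 members with at least 5 entries had a median of 15.4 CPM and the 14 with none a median of 353 CPM. How multiple matches were counted is not given in the sources used here, so a low value such as that of Rps12 or Rpl21 is uncertain as a level of expression. Of the pseudogene entries in the count tables, Rpl14-ps1 had more counts than its parent gene, with 738, 770 and 739 CPM in WT.

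The libraries split in a way the labels do not explain, and the split touched most of the family. Within WT, replicate 3 stood apart from replicates 1 and 2, and within rescue, replicate 2 stood apart from replicates 1 and 3. Rps29, a small-subunit zinc-binding protein, was at 16.2, 11.8 and 4.02 CPM in WT, 18.8, 12.8 and 11 in dKO, with 3.46, 14.1 and 2.29 in rescue. Rps16 showed the same order, with 318, 285 and 96.3 CPM in WT, 310, 244 and 198 in dKO, against 108, 298 and 81.2 in rescue. Rpl39, a very small protein that lines the peptide exit tunnel, went the other way, with 37.6, 33.2 and 75.3 CPM in WT, 29.8, 31.8 and 31.5 in dKO, against 53.6, 24.4 and 57.0 in rescue. In each of these genes WT 3, rescue 1 and rescue 3 resembled each other, as did WT 1, WT 2 and rescue 2.

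Of the 75 tested members, 46 were lowest in WT 3 among WT and highest in rescue 2 among rescue, and 16 were the reverse, together 82.7%. Among 9154 other genes with at least 10 CPM the 2 patterns together took 52.1%. The correlation of deviations from the group mean over the 75 members, a description over genes of shared libraries, was -0.93 between WT 3 and rescue 2 and 0.88 between WT 3 and rescue 3. For the other genes with at least 10 CPM these values were -0.68 and 0.56. Over the members dKO 1 had 0.63 with WT 1, 0.67 with rescue 2 and -0.68 with WT 3. Over the other genes these 3 values were 0.02, 0.13 and -0.20. The median coefficient of variation between replicates, over the 54 members at 10 CPM or more, was 11.7% in WT and 13.5% in rescue, against 4.6% and 4.9% for the other genes at that level. In dKO it was 7.12% for members and 7.88% for the others. The labels name no batch, and what the split is was not tested. Each comparison below is therefore also given without WT 3, rescue 1 and rescue 3, and without WT 1, WT 2 and rescue 2, choices made after the split was seen. The first choice leaves 1 rescue library and the second 1 WT library, while all dKO libraries stay in both. In every comparison both choices lowered the share of all tested genes called, but the number of members called did not fall in each fit. A call lost there is not shown to depend on the split or on the number of libraries.

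**Figure D2:**
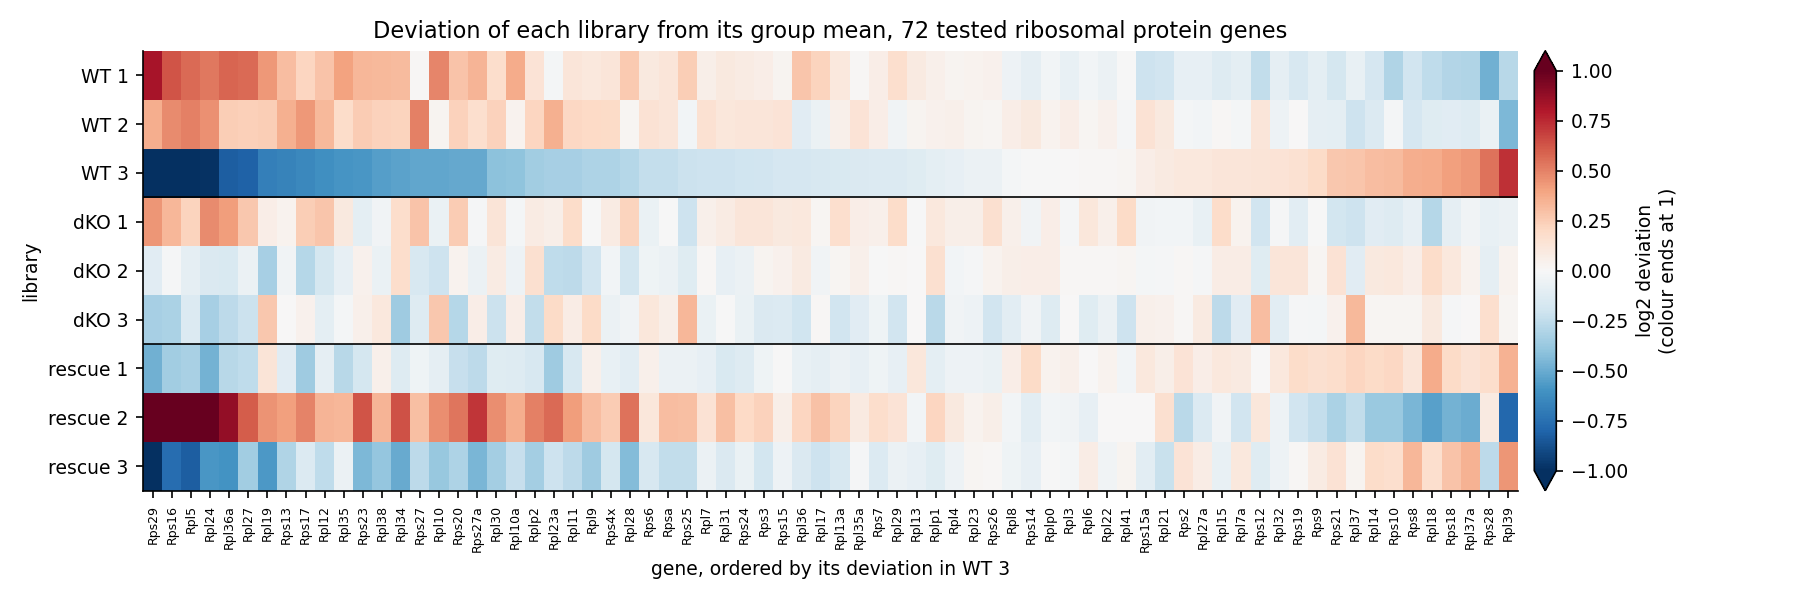
Log2 deviation of each library (rows) from the mean of its group for 72 of the 75 tested ribosomal protein genes (columns, ordered by their deviation in WT 3). Rows WT 3, rescue 1 and rescue 3 share blue at the left and red at the right, and rescue 2 shows the opposite, while the dKO rows are paler.

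The comparison of dKO with WT asks which members differ in cells without both PRC2 methyltransferase genes. Most members did not pass the test: 2 rose, 18 fell and 55 did neither, at an edgeR Benjamini-Hochberg adjusted p under 0.05 over all 14145 tested genes. That is 26.7% of members called, where 64.7% of all tested genes were called, 33.7% higher and 31% lower. The median log2 fold change of the members was -0.13 and that of all tested genes 0.00, and the members ranged from -0.65 to 0.54. None of the members moved by more than 1 on the log2 scale, which 23.5% of all tested genes did with a call. In 24 of 75 members the WT and dKO libraries did not overlap, against 68% of all tested genes.

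Both called rises were in large-subunit genes. Rpl27a (chr7:109519195-109522369), whose start carries the 20-base pyrimidine run printed above, was at 36.8, 38.0 and 41.9 CPM in WT and at 49.7, 51.8 and 55.7 CPM in dKO. Every dKO library lay above every WT library, and the rise was 0.43 ± 0.082 (log2 fold change, SE; adjusted p = 0.000586), or 1.35-fold. It was the one call of this comparison that held in all 19 alternatives tried. Rpl9 was at 6.82, 7.27 and 5.11 CPM in WT and 8.81, 7.72 and 10.1 in dKO, a rise of 0.48 ± 0.19 (adjusted p = 0.0406) that was lost in 6 alternatives, among them leaving out WT 1, WT 3, dKO 1 or dKO 3.

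Most of the members that fell had many counts, a level at which more than 50% of all tested genes fell. Of the 32 members with a mean of 100 CPM or more, 15 fell and 0 rose, with a median log2 fold change of -0.23, and of the 43 tested members under 100 CPM 3 fell and 2 rose, with a median of -0.04. Of all 2608 tested genes at 100 CPM or more, 52.8% fell and 12.2% rose, with a median of -0.19, so the 46.9% of members that fell lay near the share of other genes at their level. Of all 11537 tested genes under 100 CPM, 26% fell and 38.6% rose, against 6.98% and 4.65% of members. Rpl8, which lies near the peptidyl transferase centre, was at 2453, 2655 and 2500 CPM in WT and 2146, 2160 and 1928 in dKO. It fell by 0.29 ± 0.060 (adjusted p = 0.00115), with no overlap between the groups. Rpl4 fell by 0.27 ± 0.059 (adjusted p = 0.00179), from 3544 CPM or more in WT to at most 3250 CPM in dKO. Rpl8 passed without either side of the library split, and Rpl4 did not pass without WT 1, WT 2 and rescue 2.

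Small-subunit genes fell as well. Rps9, a protein of the mRNA entry channel, was at 693, 695 and 846 CPM in WT and at 575, 584 and 569 in dKO, a fall of 0.37 ± 0.10 (adjusted p = 0.00662). Rps14, which sits on the 40S platform and whose loss of one copy underlies the 5q- syndrome in humans, was at 582, 664 and 618 CPM in WT and 486, 522 and 485 in dKO, a fall of 0.32 ± 0.081 (adjusted p = 0.00416). Rps7 went from 138, 138 and 119 CPM to 108, 104 and 101 (-0.34 ± 0.084, adjusted p = 0.00407). None of these 3 genes had overlapping libraries, but Rps9 did not pass without dKO 3, nor Rps7 and Rps14 without WT 1, WT 2 and rescue 2. Rps18 (-0.53, adjusted p = 0.0449) and Rpl36 (-0.52, adjusted p = 0.00796) had the largest called falls, at 55.9 to 63.9 and 9.62 to 11.9 CPM in dKO. Rps18 did not pass without WT 3 or any 1 of the dKO libraries.

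Rplp0, a P-stalk protein that recruits elongation factors and whose mRNA is widely used as a reference in quantitative PCR, was at 1381, 1442 and 1405 CPM in WT and 1259, 1256 and 1096 in dKO. Its fall of 0.23 ± 0.060 (adjusted p = 0.00525) turned to 0.07 (adjusted p = 0.363) with cyclic loess scaling. Rpl4 (0.07, adjusted p = 0.246) and Rpl8 (0.03, adjusted p = 0.678) changed sign under the same scaling, without a call. By subunit, 9 of 30 small-subunit genes fell and 0 rose, and 9 of 45 large-subunit genes fell and 2 rose. Further falls, in Rpl3, Rpl6, Rpl23, Rpl32, Rpl41, Rps2, Rps15, Rps15a and Rps26, lay between -0.28 and -0.15.

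Of other members with well known roles most did not pass. Rpl5 and Rpl11, which with 5S RNA bind Mdm2 when ribosome assembly fails, had log2 fold changes of 0.28 ± 0.53 and 0.11 ± 0.20. Rps6, the substrate of S6 kinase, was at -0.08 ± 0.12, and Rpsa at -0.07 ± 0.15. Rps19, the gene most often mutated in Diamond-Blackfan anaemia, fell by 0.26 ± 0.10 (adjusted p = 0.0417), and 2 more of the 9 tested genes of that disease fell. The Rps19 call was lost without WT 2, WT 3, dKO 1 or dKO 3. The X-linked Rps4x (-0.27, adjusted p = 0.0852) and Rpl39 (-0.65, adjusted p = 0.171), and the ubiquitin fusion Rps27a (-0.11, adjusted p = 0.763), did not pass. The values nearest 0 were those of Rpl22 (0.04 ± 0.052), Rps23 (0.03 ± 0.27), Rplp2 (-0.03 ± 0.23) and Rpl30 (-0.04 ± 0.23).

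The direction of these falls was set against the other genes, and it depended on the scaling. With library totals in place of TMM factors, the members' median was 0.007 and 6 rose and 2 fell, while the median of all tested genes moved to 0.134. Relative to all tested genes the members' median was -0.127 or -0.128 under TMM, DESeq2 size factors, upper-quartile and total-count scaling. Each of these scales a library by a single factor and shifts all genes alike, so this difference was bound to stay nearly the same. Under cyclic loess, which can change it, it was -0.051. Members that fell numbered 8 under upper-quartile scaling and 5 under cyclic loess, where 62.9% and 61.1% of all tested genes were called. Without WT 3, rescue 1 and rescue 3 the members' median was -0.19 and that of all tested genes 0.02. Without WT 1, WT 2 and rescue 2, which leaves 1 WT library, these medians were 0.03 and 0.02.

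**Figure D3:**
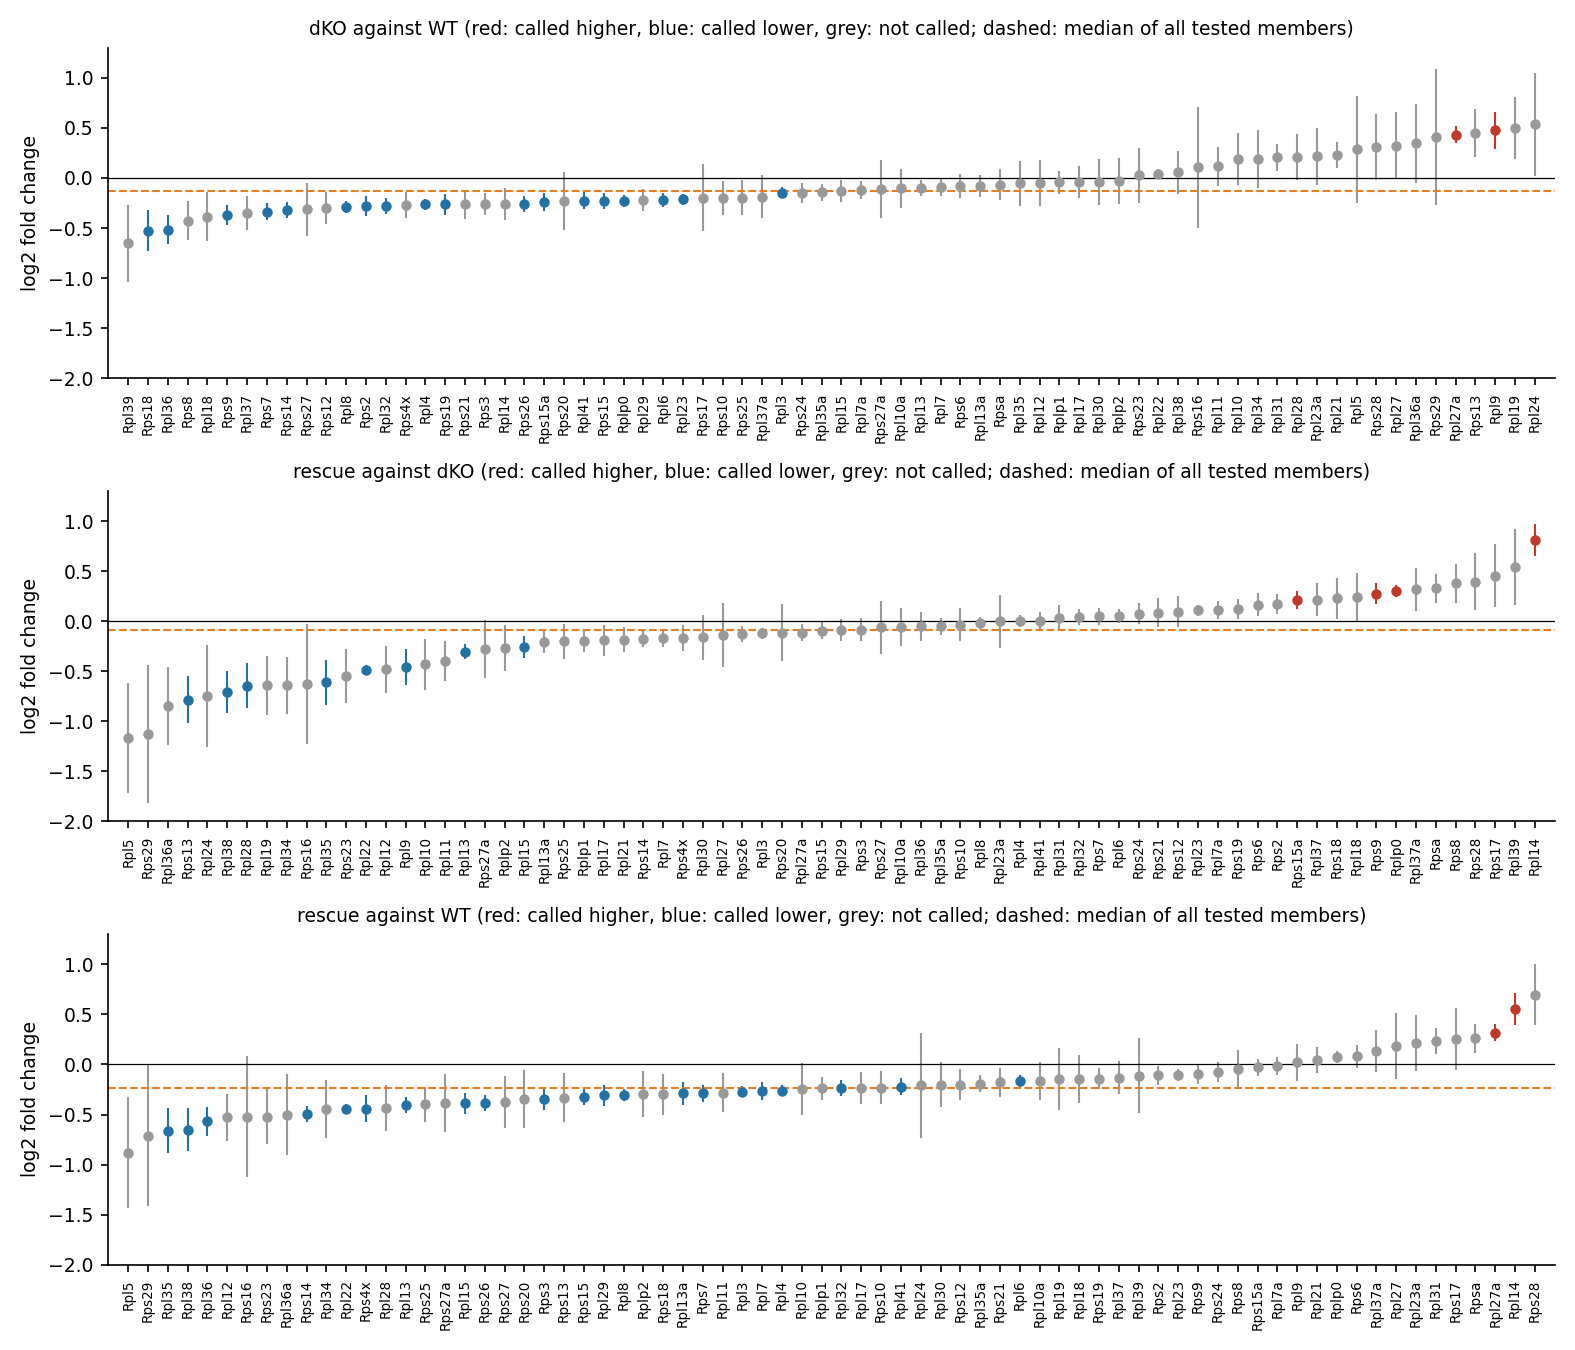
Log2 fold change with SE of 72 of the 75 tested ribosomal protein genes in each comparison, ordered by value, with called genes in red (higher) or blue (lower) and the median of all 75 as a dashed line. Most points lie within 0.5 of 0, the medians are -0.13, -0.09 and -0.24, and genes of the library split such as Rps29, Rps16 and Rpl5 have the widest error bars. With library totals as scaling the median of the upper panel is 0.007.

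The comparison of rescue with dKO asks how members differ between cells with re-expressed EZH2 and dKO cells. The labels do not give the parent line of the rescue cells, so re-expression and a difference between lines cannot be told apart. It shares the dKO libraries with the comparison above and the rescue libraries with the one that follows, so agreement or opposition between them is partly built in. Of the 75 members 4 rose, 9 fell and 62 did not pass. That is 17.3% called, where 70.3% of all tested genes were called, 32.1% higher and 38.2% lower. The median log2 fold change was -0.09 for members and -0.04 for all tested genes. Of the 32 members at 100 CPM or more 12.5% rose and 3.12% fell, with a median of -0.005. Of all tested genes at that level 54.4% rose and 17.6% fell, with a median of 0.21. Under 100 CPM 0% of members rose and 18.6% fell, against 27% and 42.9% of all tested genes. Libraries of the 2 groups did not overlap in 14 members (18.7%), against 71.7% of all tested genes.

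Rpl22 fell with the smallest adjusted p of the family. Its protein sits on the outer face of the 60S subunit and is dispensable in most mouse tissues, where the paralog Rpl22l1 can take its place. Rpl22 (chr4:152324436-152334082) was at 662, 710 and 696 CPM in WT, 733, 715 and 681 in dKO, with 518, 507 and 494 in rescue. All 3 rescue libraries lay below all 6 others, with a fall of 0.49 ± 0.052 against dKO (adjusted p = 5.12e-06) and of 0.45 ± 0.052 against WT (adjusted p = 2.8e-05). Both calls held in all 19 alternatives, including the removal of either side of the library split, where the values against dKO were -0.48 and -0.48. The 32 tested genes within 2 Mb had a median of -0.33 in rescue against dKO and 0.05 in rescue against WT, and the part of that neighbourhood was not tested.

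The paralog Rpl22l1 was at 107, 108 and 93.8 CPM in WT, 96.4, 108 and 58.1 in dKO, with 50.3, 58.2 and 39.6 in rescue. It fell by 0.82 ± 0.21 against dKO (adjusted p = 0.0048) and by 1.06 ± 0.21 against WT (adjusted p = 0.0017). RPL22 is known as a repressor of Rpl22l1, and here both genes were lower in rescue. The dKO 3 library of Rpl22l1 overlapped the highest rescue library.

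Rpl14 had the largest rise of the family. It was at 233, 238 and 326 CPM in WT, 205, 237 and 225 in dKO, with 437, 296 and 436 in rescue (chr9:120571517-120574653). The rise was 0.81 ± 0.16 against dKO (adjusted p = 0.000893) and 0.55 ± 0.16 against WT (adjusted p = 0.0128). The 37 tested genes within 2 Mb had a median of 0.04 against dKO and of 0.58 against WT, the latter close to the value of the gene itself. WT 3, rescue 1 and rescue 3 were its highest libraries, as in the split. Without those 3, with 1 rescue library left, the rise against dKO was 0.42. The value against WT was then 0.34 and did not pass. The pseudogene entry Rpl14-ps1 rose too, from 675, 711 and 637 CPM in dKO to 957, 976 and 941 in rescue (0.51, adjusted p = 4.5e-06), and reads of such near-identical copies may not be fully separated.

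Rplp0 was at 1522, 1460 and 1482 CPM in rescue, above its 3 dKO values, with a rise of 0.31 ± 0.060 (adjusted p = 0.000619). That value was -0.0057 (adjusted p = 0.942) under cyclic loess. Rps9 (0.28, adjusted p = 0.0283) and Rps15a (0.21, adjusted p = 0.0462) rose as well. Each was lost in at least 10 alternatives, and Rps9 was at 773, 586 and 733 CPM in rescue, where rescue 2 stood just above the highest dKO value.

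Falls against dKO were spread over 8 large-subunit genes and 1 small-subunit gene. Rpl13 was at 33.8, 34.0 and 33.9 CPM in dKO and 29.5, 26.9 and 25.8 in rescue, a fall of 0.30 ± 0.078 (adjusted p = 0.00397) that held in all 19 alternatives. Rpl38, whose loss in mice alters axial skeletal patterning and the translation of Hox mRNAs, was at 28.3, 26.5 and 15.5 CPM in WT, 23.6, 23.0 and 26.0 in dKO, with 15.1, 18.4 and 11.2 in rescue. Its fall of 0.71 ± 0.21 (adjusted p = 0.0111) did not pass without dKO 3. Rps13 (-0.78) and Rpl35 (-0.61) also fell without overlap and Rpl28 (-0.64) with overlap, and these 3 calls were lost when WT 3, rescue 1 and rescue 3 were left out. Rpl9 (-0.46) and Rpl15 (-0.26) fell with overlapping libraries. The largest negative values, Rpl5 (-1.17 ± 0.55) and Rps29 (-1.12 ± 0.69), did not pass and belong to the genes most split between rescue libraries. Rpl4, Rpl8, Rpl41 and Rpl23a were nearest 0.

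Counts in this comparison moved with single libraries and with the scaling. Without rescue 2 there were 10 rises and 24 falls, without rescue 3 there were 4 and 4, and without dKO 1 there were 2 and 5. Of all tested genes 67.6%, 65% and 66.3% were called in these settings. Total-count scaling gave 2 rises and 27 falls with an all-gene median of -0.179, and cyclic loess 4 and 18. Under these scalings 68.7% and 67.4% of all tested genes were called. Without WT 3, rescue 1 and rescue 3, which leaves 1 rescue library, the members' median was 0.01 and that of all tested genes -0.07. Without WT 1, WT 2 and rescue 2 these medians were -0.15 and -0.06.

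**Figure D4:**
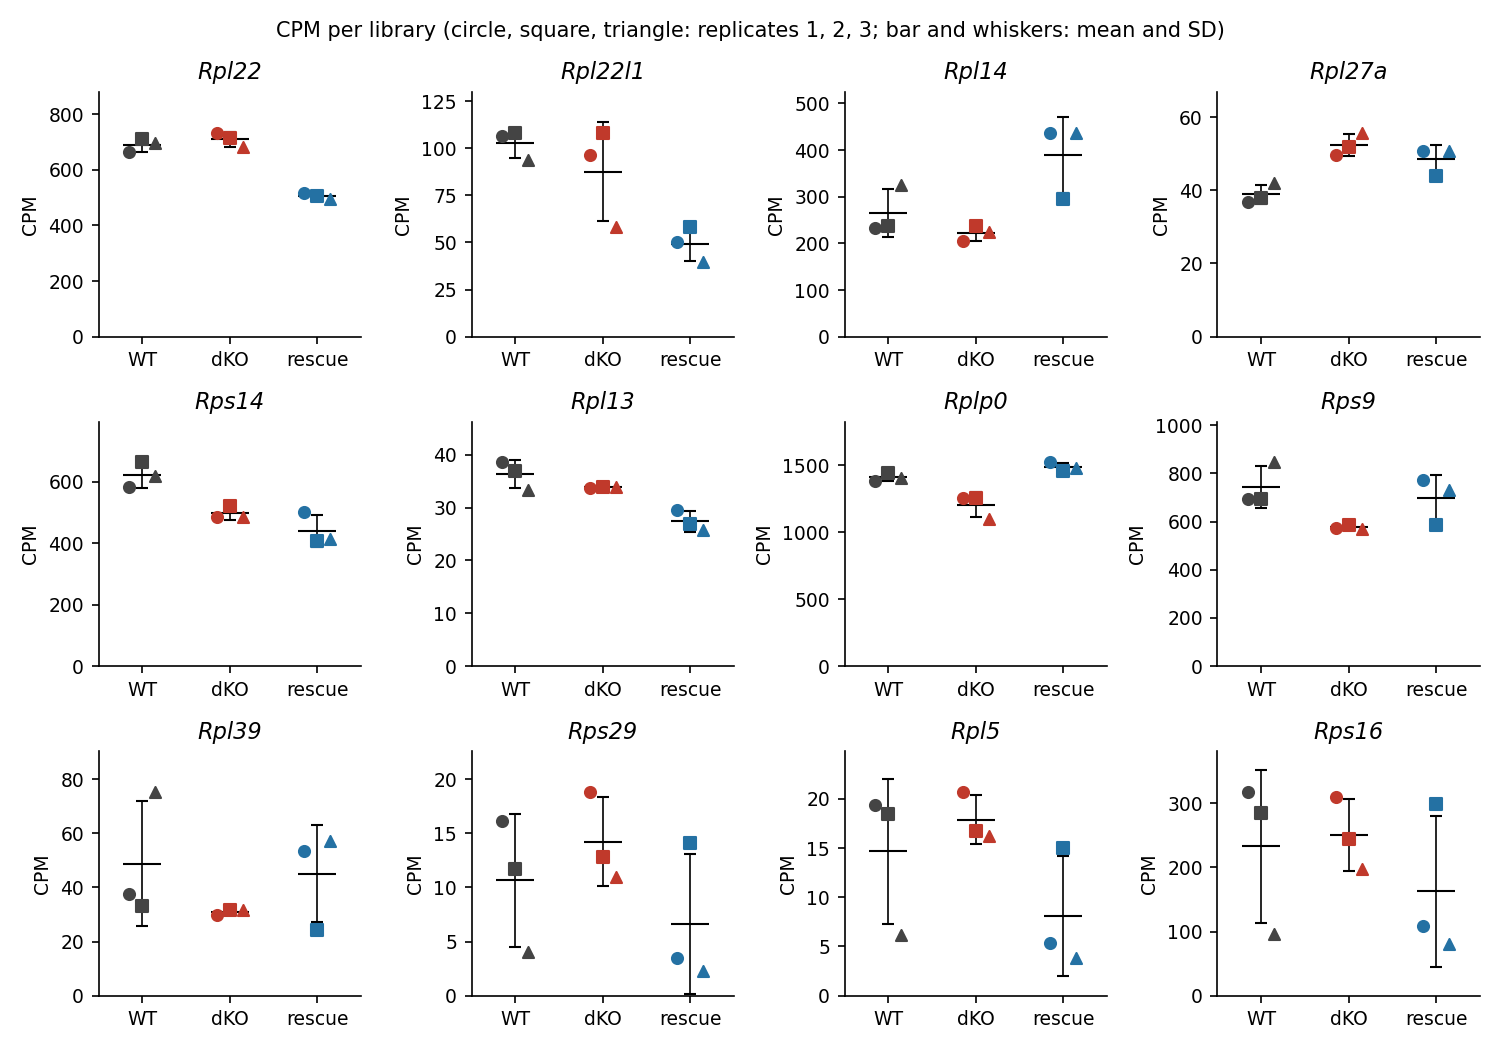
TMM-scaled CPM of 11 ribosomal protein genes and the paralog Rpl22l1 in each library (circle, square and triangle for replicates 1, 2 and 3), with group mean and SD of 3 libraries. Rpl22 is lower in all rescue libraries, Rpl27a is higher in all dKO than in all WT libraries, and in the bottom row WT 3, rescue 1 and rescue 3 lie together away from WT 1, WT 2 and rescue 2.

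The comparison of rescue with WT asks whether the members were at wild-type levels in rescue cells. Of 75 members 2 rose, 23 fell and 50 did not pass, 33.3% called beside 54.1% of all tested genes, which were called higher in 26.8% and lower in 27.3%. The members' median log2 fold change was -0.24 and that of all tested genes 0.00, and 62 members had a negative value. This median lay between -0.24 and -0.21 under all 6 scalings tried. Of the 32 members at 100 CPM or more, 17 fell (53.1%), against 29.1% of all tested genes at that level, whose median was 0.01. Libraries did not overlap in 18 members (24%), against 65.3% of all tested genes. The members' share of total counts was lower in all rescue libraries (1.86% to 2.00%) than in all WT libraries (2.18% to 2.34%).

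Rps14 fell most clearly beside Rpl22, to 501, 408 and 416 CPM in rescue, with a fall of 0.49 ± 0.081 against WT (adjusted p = 0.000333) that held in all 19 alternatives. Rpl36 (-0.57, adjusted p = 0.00557), Rpl13 (-0.40, adjusted p = 0.00103), Rpl15 (-0.39, adjusted p = 0.00891) and Rps26 (-0.39, adjusted p = 0.00157) fell without overlap. Rpl13 was lost without WT 1, WT 2 and rescue 2, and the other calls of these 4 on removing either side of the library split. Rpl8, at 2153, 2021 and 1997 CPM in rescue, fell by 0.30 ± 0.060 (adjusted p = 0.0012), and Rpl4, at 3015, 3341 and 3019, by 0.26 ± 0.059 (adjusted p = 0.00275). In both genes every rescue library lay below every WT library. Both calls were lost on removing either side of the split, which leaves 1 rescue or 1 WT library.

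Rpl27a was at 50.6, 44.0 and 50.8 CPM in rescue, above its WT values, with a rise of 0.32 ± 0.081 (adjusted p = 0.00589). Without WT 3, rescue 1 and rescue 3 it was 0.24, and without WT 1, WT 2 and rescue 2 it was 0.28. These fits leave 1 library in a group, and neither value passed. Rpl14 was the other rise. Rplp0 (0.08, adjusted p = 0.286), Rpsa (0.26, adjusted p = 0.152) and Rps6 (0.08, adjusted p = 0.567) did not pass, and Rpl7a, Rpl9, Rps15a and Rpl21 were nearest 0. The X-linked Rps4x, at 434, 455 and 323 CPM in WT and 280, 352 and 261 in rescue, fell by 0.44 (adjusted p = 0.0141), although its groups overlapped, and did not pass without WT 1, WT 2, rescue 1 or rescue 3. Further falls, in Rpl3, Rpl6, Rpl7, Rpl13a, Rpl29, Rpl32, Rpl35, Rpl38, Rpl41, Rps3, Rps7 and Rps15, lay between -0.66 and -0.17. Leaving out WT 1, WT 2 or rescue 3 lowered the number of falls to 11 in each case and leaving out rescue 1 to 12. In these 4 fits the share of all tested genes called was lower as well, at 46.3%, 44.9%, 46% and 45.5%. Leaving out WT 3 or rescue 2 raised the number of falls to 26 and 34, with 47.3% and 49.5% of all tested genes called. Without WT 3, rescue 1 and rescue 3 the members' median was -0.18, and without WT 1, WT 2 and rescue 2 it was -0.20. The medians of all tested genes were 0.003 and 0.004.

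By functional site of the ribosome the groups are small. Of 4 P-stalk genes, Rplp0 alone was called, as given above, while Rplp1, the partner protein, was at 1019, 1009 and 919 CPM in WT, 1018, 1058 and 782 in dKO, with 774, 960 and 763 in rescue and did not pass in any comparison. Of 8 tested genes that line the peptide exit tunnel, 0 rose in any comparison, and 1 fell in dKO against WT, 2 in rescue against dKO and 3 in rescue against WT. Of 5 genes of the mRNA entry and decoding face of the 40S subunit, 2 fell in dKO against WT, 0 were called in rescue against dKO and 2 fell in rescue against WT. The 9 tested genes mutated in Diamond-Blackfan anaemia gave 3, 0 and 2 falls in the same order and 0 rises. In dKO against WT the shares called were 25% of P-stalk, 12.5% of exit-tunnel, 40% of decoding-face and 33.3% of the anaemia genes, all below the 64.7% of all tested genes, and no pattern among sites is read from them.

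Ribosomal proteins and paralogs whose symbols fall outside the rule were read beside the members. Gnb2l1, the scaffold protein RACK1 of the 40S subunit, was at 3420, 3487 and 3265 CPM in WT, 2936, 2715 and 2425 in dKO, with 2958, 3048 and 2876 in rescue. It fell by 0.33 in dKO (adjusted p = 0.00086) and by 0.20 in rescue against WT (adjusted p = 0.026). Rps3a1 fell by 0.46 in dKO (adjusted p = 0.039) and by 0.53 in rescue against WT (adjusted p = 0.025). Fau, whose product is a small-subunit protein fused to a ubiquitin-like one, did not pass in any comparison and followed the library split in WT, at 20.2, 19.4 and 9.64 CPM in WT.

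Of 11 paralogs 10 were tested, and 2 rose and 4 fell in dKO against WT. Rpl10l, a retrogene copy of the X-linked Rpl10 that replaces it in male germ cells, was at 28.8, 30.1 and 31.4 CPM in WT, 44.3, 43.7 and 51.3 in dKO, with 38.8, 31.1 and 39.0 in rescue. It rose by 0.63 ± 0.10 in dKO against WT (adjusted p = 0.00016). Rpl39l, the testis-enriched copy of Rpl39, was at 15.8, 16.6 and 14.6 CPM in WT and 18.1 to 38.9 in dKO (0.97, adjusted p = 0.0027), with dKO 3 close to WT. It was at 10.7 to 11.4 CPM in rescue, 1.48 below dKO on the log2 scale (adjusted p = 0.00012).

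Rpl3l, the muscle copy of Rpl3, was at 2.56 to 3.51 CPM in WT, 1.68 to 1.75 in dKO, with 0.259 to 0.420 in rescue, and fell by 2.95 in rescue against WT (adjusted p = 2.2e-06). Rpl7l1, at 306 to 312 CPM in WT, fell by 0.40 when dKO was set against WT, and its rise from dKO to rescue was 0.55 (adjusted p = 2e-05 and 1.1e-06). Rsl24d1, a 60S assembly factor related to Rpl24, moved likewise (-0.28 and 0.44), as did Rps4l (-0.35 and 0.49). Rps27l, a p53 target, was lower in rescue than in WT (-0.44, adjusted p = 0.022). Rpl36al and Rpl37rt did not pass in any comparison, and Rps27rt had 0 counts in all libraries.

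Genes that make ribosomes or regulate their synthesis were read in lists of their own, beside the shares of all tested genes: 33.7% higher and 31% lower in dKO against WT, 32.1% and 38.2% in rescue against dKO, and 26.8% and 27.3% in rescue against WT. At 100 CPM or more, 12.2% of all tested genes rose and 52.8% fell in dKO against WT. The shares at that level were 54.4% and 17.6% in rescue against dKO, and 30.1% and 29.1% in rescue against WT. Of 54 genes of small nucleolar ribonucleoproteins (snoRNPs) and nucleolar assembly, 1 rose and 26 fell (48.1%) in dKO against WT, with a median of -0.18. In rescue against dKO 39 rose (72.2%) and 3 fell, with a median of 0.36, and in rescue against WT 26 rose (48.1%) and 8 fell, with a median of 0.18. Nop56, a core box C/D snoRNP protein, had means of 262, 173 and 268 CPM in WT, dKO and rescue, and Nop2, an rRNA methyltransferase, 237, 204 and 350. Gnl3, nucleostemin, went to 272, 206 and 132 CPM, falling in each comparison in turn (-0.40, -0.64 and -1.04), and Npm1 did not pass in rescue against dKO (adjusted p = 0.951).

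Among 15 RNA polymerase I genes, 3 rose and 5 fell (33.3%, near the share of all genes) in dKO, and 8 rose (53.3%) and 3 fell in rescue against dKO, the rises including the largest subunit Polr1a (0.67) and the initiation factor Rrn3 (0.58). Of 18 mTOR and Myc regulators, 0 rose and 9 fell (50%) in dKO, and 12 rose (66.7%) and 1 fell in rescue against dKO. Myc was low, with means of 1.32, 0.839 and 7.35 CPM in WT, dKO and rescue, and rose by 3.14 in rescue against dKO (adjusted p = 9.4e-09). Mycn, the more abundant Myc gene here, was at 140, 128 and 141 CPM. The kinase gene Mtor itself rose by 0.38, and Ddit4, an inhibitor of the pathway, fell by 0.90.

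Other TOP mRNAs encode translation factors and are controlled by mTOR as those of the ribosomal proteins are. Of 18 such genes, 0 rose and 10 fell (55.6%) in dKO, 4 rose and 3 fell in rescue against dKO, and 2 rose and 8 fell (44.4%) in rescue against WT, with medians of -0.18, -0.02 and -0.16. The elongation factor Eef1a1 had means of 5516, 4565 and 4603 CPM in WT, dKO and rescue, and Pabpc1 2438, 1993 and 2698. Of 9 tested snoRNA host genes, many of them TOP transcripts, 1 rose and 5 fell in dKO, 0 rose and 3 fell in rescue against dKO, and 1 rose and 7 fell in rescue against WT. Gas5 had means of 342, 197 and 152 CPM and fell by 0.80 in dKO, by 0.37 in rescue against dKO and by 1.17 in rescue against WT (adjusted p = 4.4e-07 for the last).

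Mitochondrial translation and respiration genes were read in the same way. Of 77 mitochondrial ribosomal protein genes 6 rose and 26 fell in dKO (33.8%, near the 31% of all genes), 32 rose and 14 fell in rescue against dKO, and 16 rose and 16 fell in rescue against WT. Of 76 tested nuclear genes of oxidative phosphorylation 4 rose and 34 fell (44.7%) in dKO, 12 rose and 17 fell in rescue against dKO, and 4 rose and 32 fell (42.1%) in rescue against WT. All these lists share the scaling of the members, and no list was compared with another by a test.

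**Figure D5:**
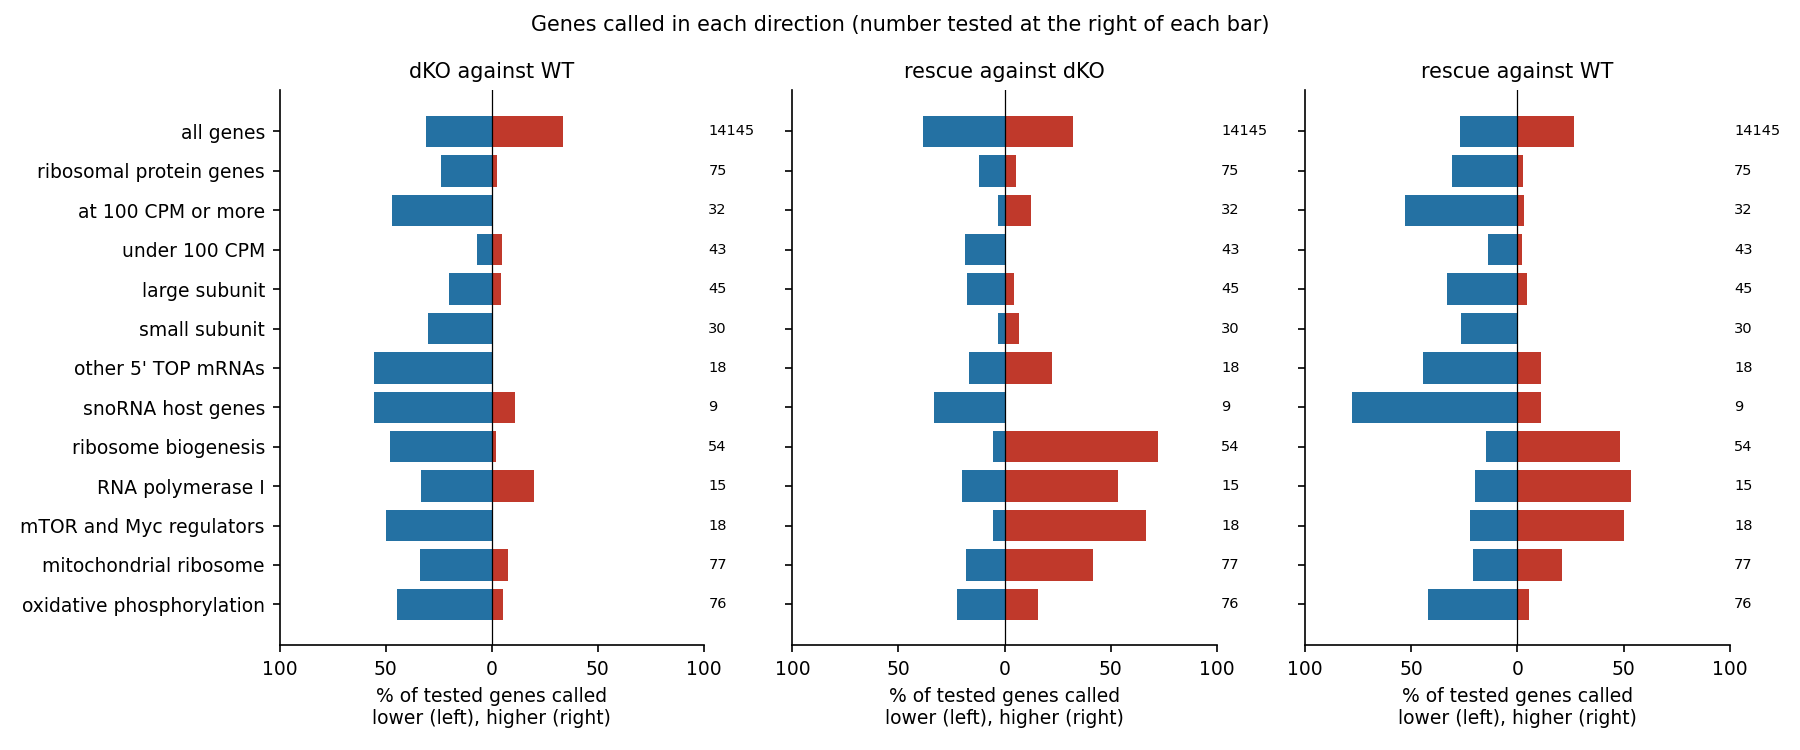
Percent of tested genes called higher (red, right) and lower (blue, left) for all genes, the ribosomal protein genes and their subsets, and related lists, in each comparison. Both bars together are shorter for the ribosomal protein genes than for all genes (26.7%, 17.3% and 33.3% called against 64.7%, 70.3% and 54.1%), and the ribosome biogenesis list extends to the right in rescue against dKO. With library totals as scaling, 6 ribosomal protein genes rise and 2 fall in dKO against WT.

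Few members lay at PRC2 sites. The authors listed 7480 peaks of Suz12, a core subunit of PRC2, in ES cells of the 129B6F1 background labelled WT. Of the 76 members, 3 (3.95%) had a peak within 1 kb of an annotated start, or of either gene end where no start was listed, against 20.6% of 22859 placed genes. The peak at Rps21 (chr2:180256899-180257451) covered both of its annotated starts, and the peak at Rps27 (chr3:90213341-90213853) covered its single start, so both printed windows lie at least in part under a peak. Their widths of 553 and 513 bp were narrow beside a median of 1032 bp. The remaining peak, near Rpl7 (chr1:16105113-16106153), lay outside the gene (chr1:16101295-16104433).

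None of the 3 genes with a peak passed in dKO against WT. Rps21 was at 142, 150 and 192 CPM in WT, 118, 148 and 138 in dKO, with 159, 113 and 156 in rescue, and its fold change of -0.26 ± 0.15 in dKO did not pass (adjusted p = 0.133). Rps27, a low gene, was at 2.48, 3.50 and 1.70 CPM in WT and 2.56, 1.88 and 1.92 in dKO (-0.32 ± 0.27, adjusted p = 0.32). Rpl7 was at 458, 490 and 381 CPM in WT, 430, 418 and 396 in dKO, with 346, 406 and 354 in rescue, and passed only in rescue against WT (-0.26, adjusted p = 0.0261). The peaks come from another strain background than the RNA, and H3K27 methylation at these genes was not analysed here.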

How the data were processed

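RNA libraries of 3 WT, 3 dKO and 3 rescue samples were used, with 1 list of Suz12 peaks from the 62 ChIP samples. The other ChIP samples were not used here. The members and gene lists were chosen with earlier results of these data known, and Rps3a1 and Rpl37rt were added after the symbols in the count tables were seen. The authors deposited whole-number read counts per gene without normalization. Per the submitters' processing notes, Trimmomatic, STAR 2.4.0 and HTSeq were used on mm10. The kit does not mark strand. Counting mode and gene annotation were not given in the sources used here. The deposited peak list holds other values, coordinates only, made by a caller likewise not named there.

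Counts were analysed with edgeR 4.0.16 in R 4.3.3 (TMM, filterByExpr by group, robust quasi-likelihood fit and test) in 1 fit of all 9 libraries with 6 residual degrees of freedom. P-values are two-sided and Benjamini-Hochberg adjusted over 14145 genes, and a gene was called under 0.05. "Rose" and "fell" are used of called genes. Alternatives were other scalings and filters, DESeq2 1.42.0, limma 3.58.1 (cyclic loess), subsets of libraries and a replicate block. The fit was tested on simulated data. Replicates differed beyond sampling noise (chi-square per degree of freedom 2.17 to 23.9), so none was counted as a repeat. A count of 0 allows up to 3 counts, and such limits cover counting error only. Deviations use log2 CPM with a prior count of 0.5. Named genes are the 6 largest and 6 smallest called changes without overlap per comparison, up to 4 nearest 0, 11 members of known role, low members, and from other lists the paralogs, genes outside the symbol rule and up to 3 genes with the smallest adjusted p. Some members are not reported or drawn singly here, though counts and medians cover all of them. Figures were drawn with matplotlib 3.10.9.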

Additional observations from a re-analysis of the deposited data

How the results depend on the processing

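Counts of members that rose and fell were recomputed under scalings, filters, tests and subsets of libraries. Under the scalings 61.1% to 64.9% of all tested genes were called in dKO against WT. The ranges were 67.4% to 70.7% in rescue against dKO and 54% to 54.3% in rescue against WT. With single libraries left out they were 58.1% to 68.6%, 64.1% to 74% and 44.9% to 49.5% in the same order. A minimum mean of 2 CPM gave 62%, 69.3% and 58.7%, and DESeq2's test 63.4%, 68.8% and 52.5%. Leaving out chromosomes 3, 9, 14 and X gave 65%, 69.7% and 53%. Fits of only the 2 groups compared gave 61.7%, 67.9% and 63.9%. For subsets that leave 1 library in a compared group no counts are given. The cause was not tested where a value moved.

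In dKO against WT (2 higher, 18 lower, median -0.13), library totals as scaling gave 6 higher, 2 lower and a median of 0.0069. Upper-quartile scaling gave 8 lower, cyclic loess 5 lower, and a minimum mean of 2 CPM 9 lower. Among members at 100 CPM or more, 0 were higher. Leaving out WT 3, rescue 1 and rescue 3 gave a median of -0.19. Leaving out WT 1, WT 2 and rescue 2, which leaves 1 WT library, gave a median of 0.028. Leaving out single libraries gave 1 to 2 higher, 14 to 17 lower and medians of -0.18 to -0.10.

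In rescue against dKO (4 higher, 9 lower, median -0.088), DESeq2's test gave 7 higher. Upper-quartile scaling gave 2 higher and 15 lower, library totals 2 higher, 27 lower and a median of -0.22, and cyclic loess 18 lower. A minimum of 2 CPM and leaving out chromosomes 3, 9, 14 and X each gave 2 higher. Members at 100 CPM or more had 1 lower. Without WT 3, rescue 1 and rescue 3 the median was 0.0064, and without WT 1, WT 2 and rescue 2 there were 10 higher and 26 lower. The latter subset leaves 1 library only in WT, which is not compared here, and 62.3% of all tested genes were called in it. Leaving out single libraries gave 2 to 10 higher, 4 to 24 lower and medians of -0.15 to -0.048.

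Rescue against WT had 2 higher and 23 lower. A fit of only these groups, a fit without those chromosomes and members at 100 CPM or more each gave 1 higher. Leaving out WT 1, WT 2 and rescue 2 gave a median of -0.20, and leaving out WT 3, rescue 1 and rescue 3 gave -0.18. Single libraries left out gave 2 to 3 higher, 11 to 34 lower and medians of -0.34 to -0.20.

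The replicate number as a block gave 17 lower in rescue against dKO. It gave 3 higher and 21 lower in dKO against WT, and 2 and 27 in rescue against WT. Of all tested genes 70.1%, 64.7% and 53.8% were called with the block, in the same order. Same-numbered libraries had correlations of deviations over all genes between -0.0875 and 0.138, not every library correlated best with its own number, and the numbers were not taken to pair the libraries.

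Single genes changed sign as follows. In dKO against WT, cyclic loess gave 0.071 for Rpl4, 0.032 for Rpl8, 0.070 for Rplp0 and -1.02 for Rps28, and Rpl35 was 0.57 without WT 1, WT 2 and rescue 2. In rescue against dKO, cyclic loess gave -0.35 for Rpl4 and -0.0057 for Rplp0, and Rpl39 was -0.34 without WT 3, rescue 1 and rescue 3.

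The family's share of counts in dKO was 2.033% on effective library size, and a wider list of genes for the share is not reported here. Single libraries left out gave 2.24% to 2.32% in WT, 2.11% to 2.24% in dKO and 1.90% to 1.97% in rescue. Members with a Suz12 peak numbered 6 within 5 kb (7.89%, against 23.5% of all placed genes) and 2 within the gene body (2.63%, against 23.5%). For peaks at least as wide as the median the number was 1 (1.32%, against 11.7%). A pyrimidine run opening with C within 5 bases of the start was found in 27 members (48.2%, against 21.2% of genes).

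Depth limits the 22 members under 10 CPM most: Rpl26 was not tested and Rps28 was at 0.344 to 0.943 CPM. With 3 libraries per group and unexplained differences between libraries, a member that did not pass is not shown to be level.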
